A study of Mus musculus with 8 samples.

Results

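The brain immune cells outside the neutrophil lineage were compared between APPNL-G-F mice with acute colitis and APPNL-G-F mice without colitis. The members were the cells of 2 single-cell RNA sequencing libraries, APP control and APP acute, that had at least 500 gene UMIs (unique molecular identifiers, each standing for 1 captured RNA molecule), at least 200 detected genes, at most 5% mitochondrial UMIs and 1 dominant hashtag. They were then assigned to 6 gates, each with at least 1 UMI of its genes. The gates were T (Cd3e and Cd3d), B (Cd79a and Ms4a1), NK (Ncr1 without Cd3e), ILC2 (Gata3 and Il1rl1 without Cd3e), macrophage (C1qa and C1qb) and monocyte (Ly6c2 and Ccr2 without C1qa). In all 7326 gated cells were compared, 3946 from APP control and 3380 from APP acute, out of 46314 cells that passed the same cell and hashtag rule in the 8 libraries of the series.

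The mice of both libraries carried the App knock-in, which puts a humanized amyloid-β sequence with the Swedish, Iberian and Arctic mutations at the mouse's own App gene. Both libraries thus share that genotype, and the comparison shows colitis on this background only. Male and female mice were used in the study, and the paper does not give the sexes by library. Acute colitis was induced with 2% dextran sulfate sodium (DSS) in the drinking water for 1 week, and controls received water. The labels give an age of 16 weeks for all of the samples. An antibody against CD45 was injected into the blood before perfusion, the cells were enriched on Percoll and CD45.2-positive cells were sorted. Whether a cell had been reached by the injected antibody cannot be read from the counts. WT (C57BL/6J) control and acute libraries of the same age and treatment are given beside the result where they bear on it. Each condition was 1 library, so no test between conditions was possible, no p-values are given, and each library's hashtag groups (4, 5, 6 and 7 in APP control, 4, 5 and 7 in APP acute) serve to show the spread. The labels do not tie a hashtag to an animal, so these groups are not counted as mice. The study lists the same number of mice for both conditions. APP acute cells nevertheless carried 3 hashtags, and APP control cells 4. Acute group 7 held 3218 cells before neutrophils were left out, against 1296 and 1768 in acute groups 4 and 5, and whether it holds cells of 1 animal or more cannot be told.

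The immune cells of the brain sit in several compartments. Border-associated macrophages of the meninges, perivascular spaces and choroid plexus are marked by Mrc1, Pf4 and Cd163 and are distinct from microglia of the parenchyma. T cells, B cells, NK cells and group 2 innate lymphoid cells (ILC2) of a healthy brain are found mostly at its borders, and the bone marrow of the skull and vertebrae supplies the meninges with monocytes and B cell precursors. DSS damages the colonic epithelium, and the inflammation that follows draws on bone marrow output and raises circulating cytokines.

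None of the marker genes of a gate's own type was at 0 in that gate in either library, but markers of other types came close in some gates. Summed over 7 T cell markers, the T gate was at 2896 CPM (counts per 1000000 gene UMIs of the gate) in APP control and 2272 CPM in APP acute, beside 1383 and 2260 CPM of 6 B cell markers. In the ILC2 gate, 8 ILC2 markers summed to 2290 and 2273 CPM, beside 2152 and 1845 CPM of 5 haemoglobin genes. In each of the 6 gates the own markers were the highest of the summed types in both libraries, with monocyte markers at 14045 and 7851 CPM in the monocyte gate beside 9243 and 3475 CPM of macrophage markers. In acute group 7 the summed precursor list of that gate, at 13346 CPM, lay above the summed classical monocyte list, at 10659 CPM. The UMIs of the 2 libraries came to 40114948 in APP control and 56307389 in APP acute over all barcodes. Both libraries shared 63 cell barcodes. Neutrophils, the cells with at least 2% of UMIs in 8 neutrophil genes, were left out, 6.22% of cells in APP control and 18.6% in APP acute. Most of those of APP acute were in group 7, which went from 3218 to 2236 cells. Between 4.05% (ILC2, control) and 20.1% (monocyte, control) of the cells of a gate also passed another gate. The hashtag groups fell into a low and a high set, with a 3.29-fold gap in the summed CPM of 10 immediate-early genes such as Fos, Jun and Egr1 in T cells. These genes are switched on within minutes of stimulation, including tissue dissociation. The low set was control groups 4 and 5 (1013 and 720 CPM) and acute group 7 (1058 CPM). The high set was control groups 6 and 7 (3786 and 4896 CPM) and acute groups 4 and 5 (4147 and 3479 CPM). Fibroblast transcripts moved with the sets, at 0.175, 0.118 and 1.36 CPM in the low groups against 27.8 to 295 CPM in the high groups. What the sets stand for was not tested, and results are given within each set where the sets differ, with the low set of APP acute resting on group 7 alone.

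B cells and macrophages made up a larger share of non-neutrophil cells in APP acute, and T cells and ILC2 a smaller one, but for B cells and macrophages the difference was seen within the high set only. B cells, which make antibody, came to 14.4% of cells (exact 95% interval 13.6 to 15.3) in APP control and 25.5% (24.4 to 26.8) in APP acute, a difference of 11.1 percentage points (Newcombe 95% interval 9.62 to 12.6). All intervals here cover counting error only. By hashtag group B cells made up 13.8%, 20.9%, 12.8% and 10.1% of cells in control groups 4 to 7 and 31.7%, 32.6% and 16.9% in acute groups 4, 5 and 7, so that acute group 7 lay among the control groups. The difference was 20.8 points within the high set and -0.351 points within the low set. In WT mice, the 2 high control groups were at 14.7% and 11.9% and the 2 high acute groups at 29.4% and 30.2%.

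Macrophages made up 3.69% (3.24 to 4.19) of cells in APP control and 6.74% (6.07 to 7.47) in APP acute, a difference of 3.05 points (2.22 to 3.90). They were scarce in every low group, at 1.65%, 0.565% and 0.671%, and more frequent in the high groups, at 7.51% and 5.42% in control and 11.4% and 11.5% in acute. The difference was 5.04 points within the high set and -0.443 points within the low set. T cells went from 26.5% to 19.2% of cells, a difference of -7.31 points (-8.85 to -5.76), and here 1 control group stood apart. Control group 4 had 45.8% T cells against 13.6%, 26.6% and 19.3% in the other control groups and 18.5%, 17.4% and 20.8% in the acute groups, and without it the difference was -0.500 points. ILC2 went from 4.71% to 3.32%, a difference of -1.39 points (-2.12 to -0.653), with groups that overlapped. Within the high set it was -2.72 points (-4.00 to -1.45) and within the low set -0.763 points (-1.38 to -0.117). Without acute group 7, the only low group of APP acute, it was 0.462 points. NK cells (6.59% and 6.70%) differed by 0.115 points (-0.813 to 1.05). Monocytes (10.0% and 9.48%) differed by -0.563 points (-1.67 to 0.548), with 4.36 points within the low set and -4.54 points within the high set. The gates need detected UMIs, so cells were also thinned to 1000 UMIs each, which left out 234 control and 120 acute cells with fewer. B cells then made up 10.6% and 19.9%, macrophages 3.04% and 5.62%, and T cells 13.6% and 8.55% of cells, in the same directions.

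**Figure D1:**
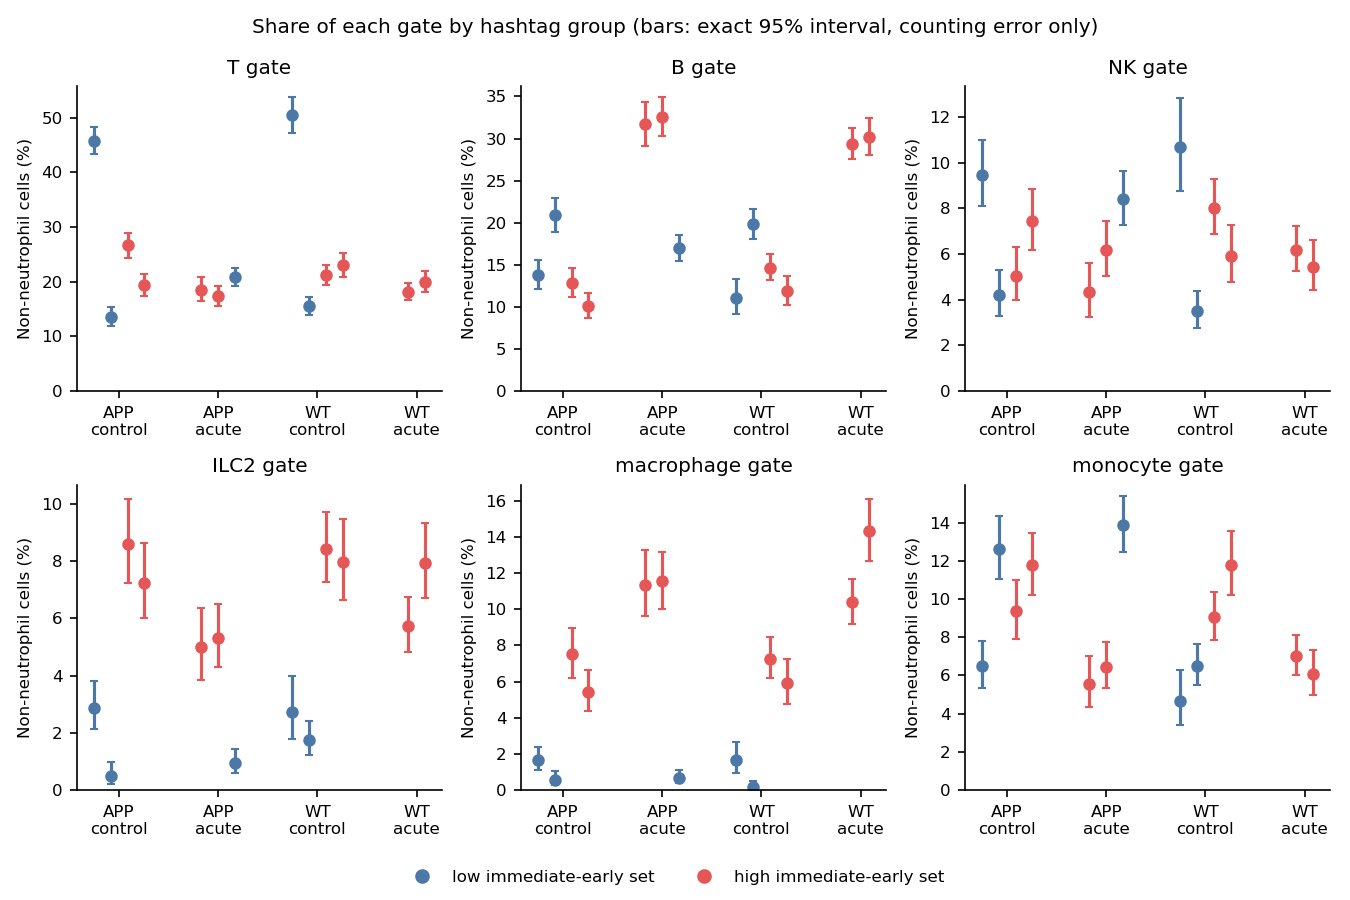
Each panel plots the share of non-neutrophil cells (%) in 1 gate, with 1 point per hashtag group of APP control, APP acute, WT control and WT acute (groups with at least 200 non-neutrophil cells), exact 95% intervals as bars, the low immediate-early set in blue and the high set in red. B cells at 31.7% and 32.6% in the 2 high acute groups of APP lie above the high control groups at 12.8% and 10.1%, while the low acute group, at 16.9%, lies between the low control groups at 13.8% and 20.9%.

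Gene expression was compared on the summed UMIs of a gate, as the log2 ratio of acute to control CPM after adding 10 CPM to both. A gene entered this comparison with 50 or more UMIs in the 2 libraries together and 50 or more CPM in one of them. A gene was counted as different at 2-fold or more, and a stricter count also asked that the hashtag groups with at least 20 gated cells did not overlap and that both sets gave the same direction. Macrophages had 51 genes higher (1.64%) and 59 lower (1.9%) in APP acute of 3105 compared. ILC2 had 39 higher (1.16%) and 52 lower (1.54%) of 3366, and monocytes 23 higher (0.723%) and 58 lower (1.82%) of 3183. T cells had 52 higher (1.69%) and 19 lower (0.617%) of 3079, B cells 52 (1.71%) and 32 (1.05%) of 3044, and NK cells 27 (0.799%) and 8 (0.237%) of 3380. Variable segments of immunoglobulin and T cell receptor genes, which differ from clone to clone, were 37 of these genes in T cells and 60 in B cells. Under the stricter count 15 genes were higher (0.483%) and 17 lower (0.548%) in macrophages, 16 (0.52%) and 4 (0.13%) in T cells, and 7 (0.208%) and 11 (0.327%) in ILC2. The same count gave 7 (0.23%) and 3 (0.0986%) in B cells, 3 (0.0943%) and 7 (0.22%) in monocytes, and 4 (0.118%) and 0 (0.0%) in NK cells. Variable segments were 11 of these 20 genes in T cells, including all 4 that were lower, and 6 of 32 in macrophages, 3 of 10 in both B cells and monocytes, and 1 each in NK cells and ILC2. Some rested on 1 cell, which held 99.98% of the Igkv1-122 UMIs of acute T cells and 99.8% of the Igkv12-46 UMIs of acute macrophages. The top acute cell of Igkv1-122 had 8146 UMIs in both the T and the B gate, so the 2 gates may share it. With the hashtag groups weighted equally, the split of the 2-fold genes moved to 44 higher and 33 lower in ILC2 and to 32 and 29 in monocytes.

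Macrophages had the most genes of any gate under the stricter count. Only 3 control and 2 acute groups were compared there, without acute group 7, against 4 and 3 in T, B and NK cells and monocytes. Fewer groups stay apart more easily, so this rank does not by itself show a larger difference. Genes of border-associated macrophages were higher in APP acute within the high set, while Thbs1, Ccl6, Il1b and Itgam were lower. Of 17 border macrophage genes compared (18 were listed), 7 were at least 2-fold higher and 0 lower, and their median log2 ratio was 0.93 beside -0.02 over all genes of the gate. Within the high set the median was 1.03 with 9 genes higher, against 2.0% of all genes, and in the WT high set it was 1.16 with 12 genes higher, against 3.9% of all genes. Within the low set, with 36 control and 15 acute cells, the median was -0.68.

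Pf4, a chemokine and a marker of border macrophages, was at 896, 396 and 208 CPM in control groups 4, 6 and 7 and at 1520 and 1498 CPM in acute groups 4 and 5. The groups with fewer than 20 macrophages, control group 5 and acute group 7, were at 201 and 640 CPM. Both high acute groups lay above every control group, with a log2 ratio of 2.27 within the high set, and in WT the high control groups were at 236 and 230 CPM and the high acute groups at 1010 and 1136 CPM. Folr2, the folate receptor β of resident macrophages, was at 50.4 and 17.3 CPM in the high control groups and 121 and 161 CPM in the high acute groups (log2 ratio 1.80, WT 1.71). Stab1, a scavenger receptor, was at 327 and 160 CPM against 551 and 702 CPM (1.34, WT 1.49), and Mrc1, the mannose receptor, at 547 and 358 CPM against 880 and 985 CPM (1.03, WT 1.16). Cd209f, a C-type lectin, had a log2 ratio of 1.72 within the high set, and Igf1, insulin-like growth factor 1, of 1.95. Other members differed less. Lyve1, the hyaluronan receptor, was at 0.36 and Cd163, the haemoglobin scavenger receptor, at -0.24.

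The genes with the largest differences under the stricter count were chosen by rule. Pla2g2d, a secreted phospholipase that makes lipid mediators (chr4:138775735-138782046, GRCm38), was at 5.06 CPM (95% interval 1.86 to 11, 6 UMIs) in APP control and 81.7 CPM (68.3 to 96.8, 132 UMIs) in APP acute, a log2 ratio of 2.61. It was at 98.7 and 75.2 CPM in acute groups 4 and 5 against 3.6 and 5.78 CPM in control groups 6 and 7. Ccl24, an eosinophil-attracting chemokine (chr5:135569937-135573049), was at 15.2 CPM (8.99 to 24.0) and 122 CPM (105 to 140), a log2 ratio of 2.39. Its acute groups were at 93.8, 145 and 99.7 CPM and its control groups 4, 6 and 7 at 90.9, 12.6 and 7.71 CPM, so that control group 4 lay just under the lowest acute group. Igfbp4, which binds insulin-like growth factors, went from 122 to 371 CPM (log2 ratio 1.53), and Serpinf1, a secreted serpin, from 26.1 to 79.2 CPM (1.30).

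Thbs1, thrombospondin 1 (chr2:118111876-118127133), went from 83.4 CPM (67.8 to 102, 99 UMIs) to 9.28 CPM (5.19 to 15.3, 15 UMIs), a log2 ratio of -2.28. Control groups 4, 6 and 7 were at 51.9, 89.9 and 86.7 CPM and acute groups 4 and 5 at 14.6 and 6.84 CPM. Sirpb1c, a signal-regulatory protein of myeloid cells, had a log2 ratio of -2.20, Apoc2, the activator of lipoprotein lipase, of -2.10, and Nfil3, a transcription factor, of -1.80. In the WT high set the same 4 genes were at -2.54, -2.34, -2.67 and -1.79. The chemokine Ccl6 was at 389, 932 and 1104 CPM in control groups 4, 6 and 7 and at 311 and 269 CPM in acute groups 4 and 5 (-1.74), and Ccl9, a related chemokine, went from 224 to 85.4 CPM (-1.30). Il1b, which encodes interleukin-1β, was at 806 and 511 CPM in the high control groups and 315 and 269 CPM in the high acute groups (-1.18 within the high set). Itgam, which encodes CD11b, had a log2 ratio of -1.26, the Fc receptor gene Fcgr4 of -1.48 and Tnfsf9, the 4-1BB ligand, of -1.72. MHC class II genes as a list had a median log2 ratio of -0.03, with 0 of 7 at least 2-fold different, and the monocyte attractants Ccl2 and Ccl7 were at 0.26 and -0.15.

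**Figure D2:**
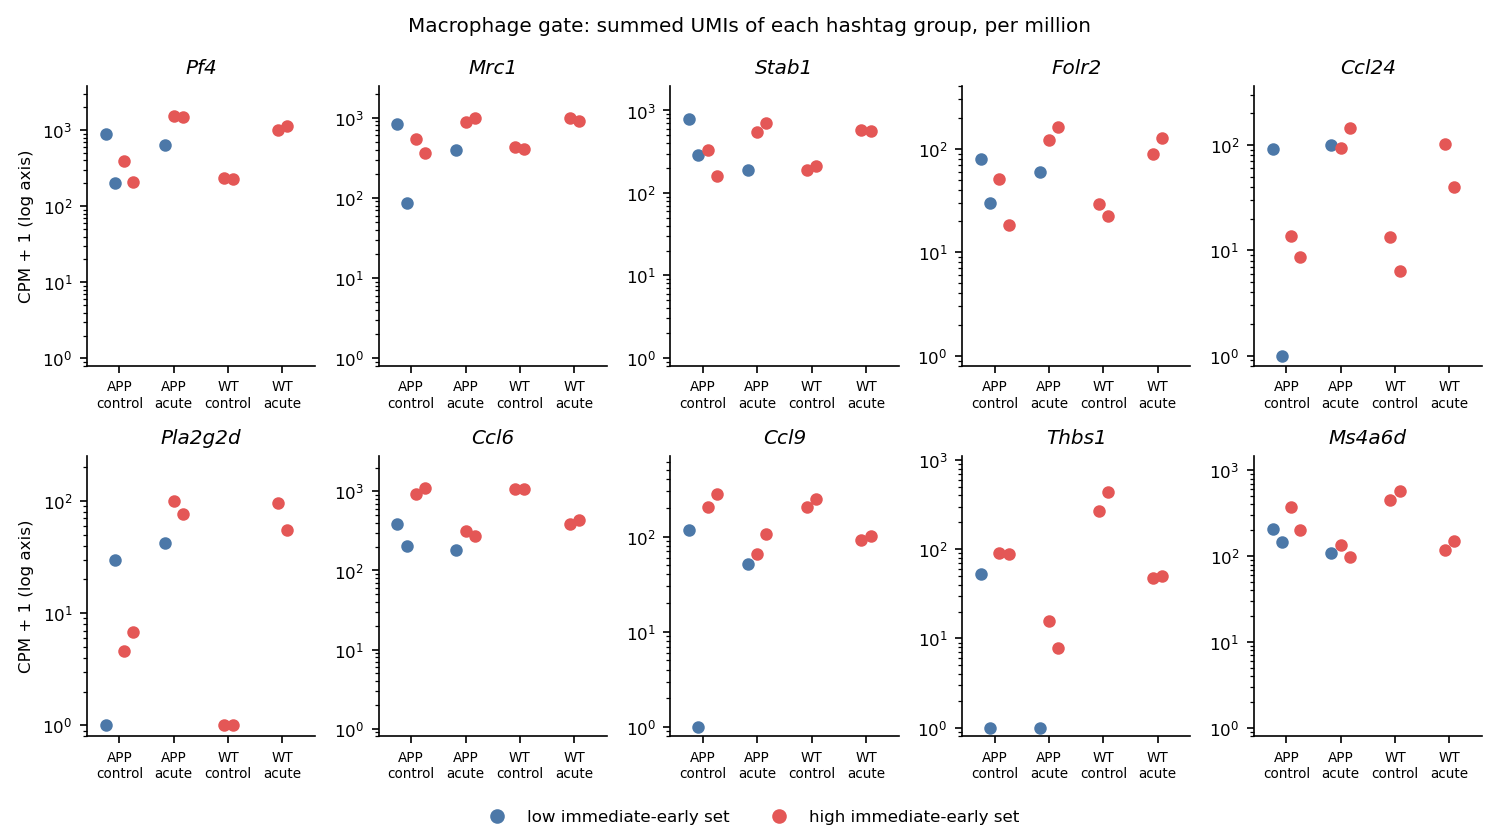
Each panel plots 1 gene of the macrophage gate in CPM + 1 (log axis), with 1 point per hashtag group of APP control, APP acute, WT control and WT acute (for WT, the high set only), blue for the low and red for the high immediate-early set. Pf4 lies at 396 and 208 CPM in the high control groups and at 1520 and 1498 CPM in the high acute groups of APP, and Ccl6 runs the other way, at 932 and 1104 against 311 and 269 CPM.

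Genes near loci of inherited risk for Alzheimer's disease were a separate list, and of the 15 compared 2 were at least 2-fold lower and 0 higher, where 1.9% and 1.64% of all genes of the gate were. Ms4a6d, of the membrane-spanning MS4A cluster, was at 208, 372 and 200 CPM in control groups 4, 6 and 7 and at 134 and 98.0 CPM in acute groups 4 and 5, a log2 ratio of -1.24 (WT high set -1.80). Sorl1, a sorting receptor for amyloid precursor protein, went from 81.7 to 32.8 CPM (-1.10, WT -1.09). Its ambient level, in barcodes with 5 to 100 UMIs, was 63.8 and 63.9 CPM. Apoe, the lipid carrier, was at 14584 and 10806 CPM in the high control groups and 13967 and 13472 CPM in the high acute groups (0.10). App itself, the knocked-in gene, had a log2 ratio of -0.28.

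The few macrophages of the low control groups carried more microglial and disease-associated transcripts than any other group. Trem2, the lipid-sensing receptor of disease-associated microglia, was at 1830 and 1035 CPM in control groups 4 and 5 against 131 to 209 CPM in every other group. The tetraspanin gene Cd9 was at 2272 and 1408 CPM and the protease gene Ctsd at 5283 and 3880 CPM in those 2 groups. Of 11 microglial genes 4 were compared, and the defining genes Tmem119 and P2ry12 were under the floor. Within the low set the microglial list had a median log2 ratio of -2.79 and the disease-associated list of -1.97, while within the high set they were at 1.01 and 0.14. These values rest on 27 and 9 control cells and 15 acute cells.

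Monocytes of APP acute differed from control in opposite directions in the 2 sets for many genes. Within the high set 8 of 16 classical, 4 of 6 inflammatory and 4 of 8 precursor genes were at least 2-fold lower, where 2.89% of all genes were. There 5 of 6 MHC class II genes were at least 2-fold higher, where 1.35% of all genes were. In acute group 7, the low set, 3 of 8 precursor genes were at least 2-fold higher, where 2.48% of all genes were, and 1 of 6 MHC class II genes was at least 2-fold lower, where 2.8% of all genes were, with all 6 below 0. Across the gate 62.0% of genes had opposite signs in the sets. The medians of UMIs per cell were also high and unequal, 8902 in control and 12677 in acute.

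Chil3, a chitinase-like protein of Ly6C-high monocytes, was at 1988 and 2903 CPM in control groups 6 and 7 and at 331 and 192 CPM in acute groups 4 and 5 (log2 ratio -3.36). In the low set it was at 418 and 311 CPM in control and 1661 CPM in acute (2.26). The acute-phase gene Saa3 was at 243 and 644 CPM in the high control groups, while in the high acute groups it was not detected in group 4, where a count of 0 allows up to 5.51 CPM, and was at 4.77 CPM in group 5 (-5.25). Cd14, the lipopolysaccharide co-receptor, was at 192 and 397 CPM against 62.5 and 57.3 CPM (-2.25). Hp, haptoglobin, had a log2 ratio of -1.84 within the high set and 1.08 within the low set, and Vcan, versican, of -2.78 and 1.22. Of 16 classical monocyte genes, 8 were at least 2-fold lower and 0 higher within the high set, where 2.89% of all genes were lower, and 13 were lower in the WT high set, where 5.56% of all genes were. Their medians were -1.06 and -1.70, beside -0.25 within the low set.

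Of 8 precursor genes compared, the 5 granule and progenitor genes were below 0 in the high set and above 0 in the low set. Prtn3, proteinase 3 of early granulocyte and monocyte precursors, was at 2185 and 2680 CPM in the high control groups and 592 and 973 CPM in the high acute groups (-1.55), but at 1400 and 1920 CPM in the low control groups and 5244 CPM in acute group 7 (1.55). Ms4a3, a marker of granulocyte-monocyte progenitors, was at 139 and 237 against 25.7 and 55.4 CPM in the high set (-1.92) and at 34.4 and 77.2 against 516 CPM in the low set (2.79). Ctsg, cathepsin G, gave -1.67 and 1.59, Mpo, myeloperoxidase, -1.20 and 0.78, and Elane, neutrophil elastase, -0.77 and 0.78. The other members ran differently. Irf8, a transcription factor of monocyte precursors, was at 0.94 in the high and -0.17 in the low set, the stem cell antigen gene Ly6a at 0.95 and -0.77, and the proliferation gene Mki67 at -0.44 and -0.79. Neutrophil markers in the gate, 11 genes summed, went from 1052 to 2185 CPM and monocyte markers from 14045 to 7851 CPM, and their part in these values was not tested.

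The monocyte genes named by rule were lower in APP acute within both sets. The stricter count asks for this and for groups that do not overlap, so neither is a separate result. Fn1, fibronectin (chr1:71585520-71653200), was at 507, 939, 652 and 841 CPM in the 4 control groups and at 272, 385 and 375 CPM in the acute groups, which lay below all of them (log2 ratio -1.08, with -1.11 in the low and -1.13 in the high set, and -1.81 in the WT high set). C3, the central complement component (chr17:57203970-57228136), was at 227, 256, 157 and 137 CPM against 84.5, 91.6 and 60.0 CPM (-1.41, with -1.88 in the low and -0.64 in the high set). Fgr, a Src-family kinase, and Hacd4, an enzyme of fatty acid elongation, had log2 ratios of -1.07 and -1.16, with -1.20 and -1.45 in the low set but -0.46 and -0.44 in the high set.

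MHC class II genes, which present antigen to CD4 T cells, were higher in the high acute groups. Cd74, the invariant chain, was at 7334 and 2617 CPM in control groups 6 and 7 and at 13503 and 13330 CPM in acute groups 4 and 5 (log2 ratio 1.59, WT high set 1.94). In the low set it was at 1481 and 414 CPM in control and 365 CPM in acute (-0.91). H2-Aa, a class II α chain, was at 2731 and 963 CPM against 4286 and 4316 CPM (1.38), and the medians of the list were 1.36 within the high set, -0.80 within the low set and 1.93 in the WT high set. In the high acute groups 5 of 6 compared genes were at least 2-fold higher, where 1.35% of all genes of the gate were.

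Class II promoters share a Y box, an inverted CCAAT element that is read together with the neighbouring X box. Since these genes moved together in the gate, the start sites of the list were searched for CTGATTGG, a form of the Y box. Both strands were searched, from 250 bases before to 50 bases after the RefSeq start (GRCm38.p6). Windows of 7 of the 10 listed genes were searched, and 3 of these genes held the letters. The other listed genes, Cd74 among them, were not searched, so the list was covered in part only. H2-Oa, which encodes a chain of the class II-like molecule H2-O of B cells, was under the floor for comparison in monocytes. The 3 windows are shown on the coding strand, where each match lay, with the match in capitals. It begins 46 bases before the start of H2-Oa (chr17:34092129-34092428, plus strand), 51 bases before that of H2-Aa (chr17:34287774-34288073, minus strand) and 62 bases before that of H2-Eb1 (chr17:34305617-34305916, plus strand).
H2-Oa: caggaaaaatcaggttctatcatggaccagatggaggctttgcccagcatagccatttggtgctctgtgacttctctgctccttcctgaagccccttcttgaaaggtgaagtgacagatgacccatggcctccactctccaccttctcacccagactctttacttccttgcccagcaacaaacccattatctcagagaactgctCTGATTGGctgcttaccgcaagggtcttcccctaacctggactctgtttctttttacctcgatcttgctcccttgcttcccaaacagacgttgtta
H2-Aa: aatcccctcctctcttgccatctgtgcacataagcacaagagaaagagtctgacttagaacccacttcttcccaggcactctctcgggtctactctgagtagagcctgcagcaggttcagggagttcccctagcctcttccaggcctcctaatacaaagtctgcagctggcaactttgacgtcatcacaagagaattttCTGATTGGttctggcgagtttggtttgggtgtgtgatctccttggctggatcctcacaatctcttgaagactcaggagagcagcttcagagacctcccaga
H2-Eb1: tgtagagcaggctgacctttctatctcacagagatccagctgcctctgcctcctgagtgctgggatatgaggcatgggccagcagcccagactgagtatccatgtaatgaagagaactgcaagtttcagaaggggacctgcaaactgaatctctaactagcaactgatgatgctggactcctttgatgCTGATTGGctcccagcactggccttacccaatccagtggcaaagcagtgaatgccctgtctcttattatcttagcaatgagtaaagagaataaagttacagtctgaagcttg
The same letters were found on either strand in 1346 of 32851 such windows of all genes, or 4.1%. A count on the coding strand alone was not made. A match describes the sequence only, and binding was not measured.

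**Figure D3:**
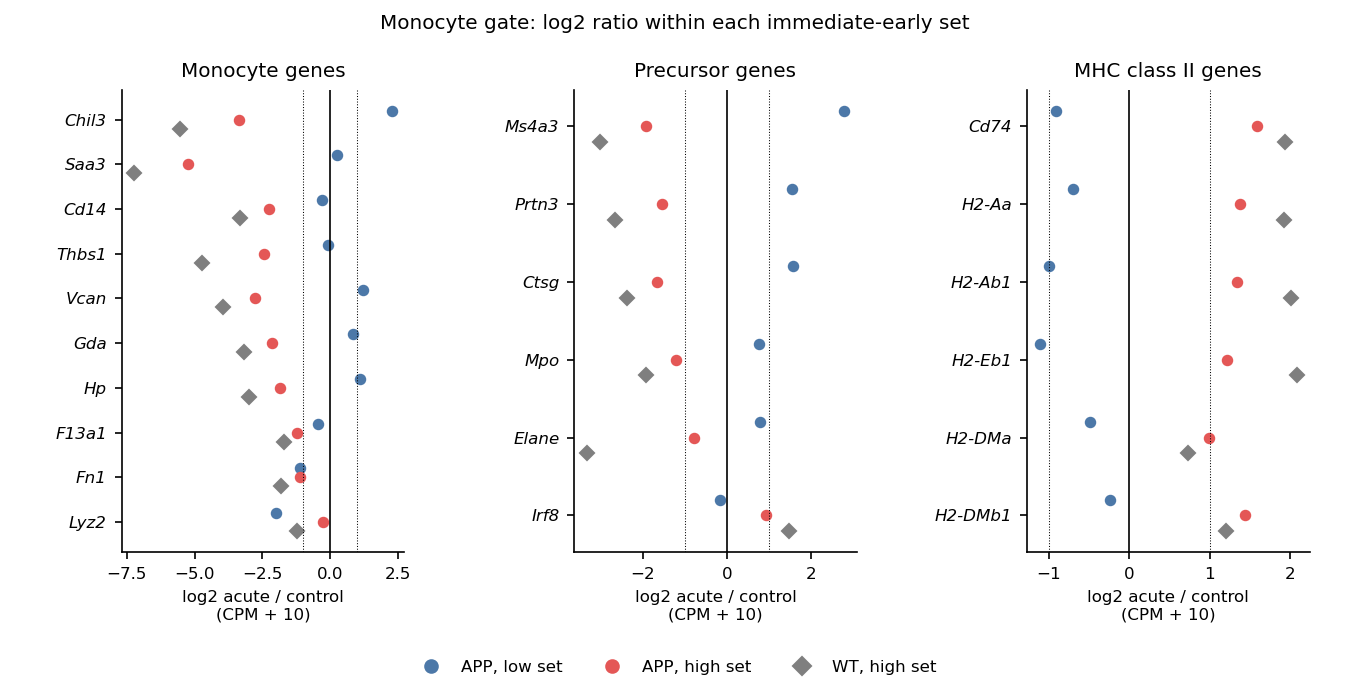
The 3 panels plot the log2 ratio of acute to control CPM (10 CPM added) for monocyte, precursor and MHC class II genes of the monocyte gate within the APP low set (blue), the APP high set (red) and the WT high set (grey), with dotted lines at 2-fold. Cd74 lies at -0.91 in the low set and at 1.59 in the high set, Prtn3 at 1.55 and -1.55, and Fn1 at -1.11 and -1.13.

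ILC2, tissue-resident lymphocytes that respond to alarmins with type 2 cytokines, were 296 cells in APP control and 170 in APP acute. Within the high set the neuropeptide gene Calca and the Notch target Hes1 were lower, while of 9 type 2 effector genes 2 were at least 2-fold higher and 2 lower, where 1.16% and 3.65% of all genes of the gate were. The receptor gene Kit was lower in both sets. Calca, which encodes the calcitonin gene-related peptide, was at 2394 and 6010 CPM in control groups 6 and 7 and at 358 and 199 CPM in acute groups 4 and 5 (log2 ratio -3.89, WT high set -4.59). In the low set it was at 445 and 765 CPM in control groups 4 and 5 and at 10509 CPM in acute group 7 (4.41), which holds 21 cells, and the groups overlapped. Calca was detected in 217 of the control and 63 of the acute cells.

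Kit, the stem cell factor receptor (chr5:75574916-75656722), was at 353, 383, 234 and 244 CPM in the control groups and at 47.8, 99.3 and 232 CPM in the acute groups. Acute group 7, with 21 cells, lay only just under the lowest control group. The log2 ratio was -1.35 (-0.60 in the low, -1.50 in the high and -1.45 in the WT high set). Hes1 was at 320 and 323 CPM in the high control groups and 76.4 and 76.1 CPM in the high acute groups (-1.94, WT -0.95). Rora, a nuclear receptor needed for ILC2 development, was at -1.21 within the high set (WT -1.47). Other genes named by rule were Rtl8c, a retrotransposon-derived gene, with a log2 ratio of 1.80 and 15 and 16 cells with a UMI, Tmem158 with -1.06, Bambi, a decoy receptor of the TGF-β family, with -1.06, and the ubiquitin ligase gene Rnf20 with -1.07.

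The 2 higher were Il13 and the chemokine gene Ccl1, and the 2 lower Il5 and Calca. Areg, amphiregulin, which aids epithelial repair, was at 314 and 311 CPM in the high control groups and 678 and 546 CPM in the high acute groups (0.92), but at 58.1 CPM in acute group 7. Il13 had a log2 ratio of 3.23 within the high set, from 7 and 14 cells with a UMI over both sets, and Il5 of -3.13, from 13 cells and 1 cell. Arg1, arginase 1, was at 49.0 and 27.4 CPM against 105 and 109 CPM (1.26, WT 1.11). MHC class II genes were at least 2-fold higher in 6 of 7 compared, where 1.16% of all genes of the gate were higher, with a median of 1.39. In the WT high set 0 of them were 2-fold higher, with a median of 0.17. Cd74 was at 910 and 1851 CPM in the high control groups and at 3386 and 5936 CPM in the high acute groups. Only 27 and 33 cells held a Cd74 UMI, its ambient level went from 2420 to 3671 CPM, and the share of ILC2 in another gate went from 4.05% to 9.41%. The part of these in the class II values was not tested.

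**Figure D4:**
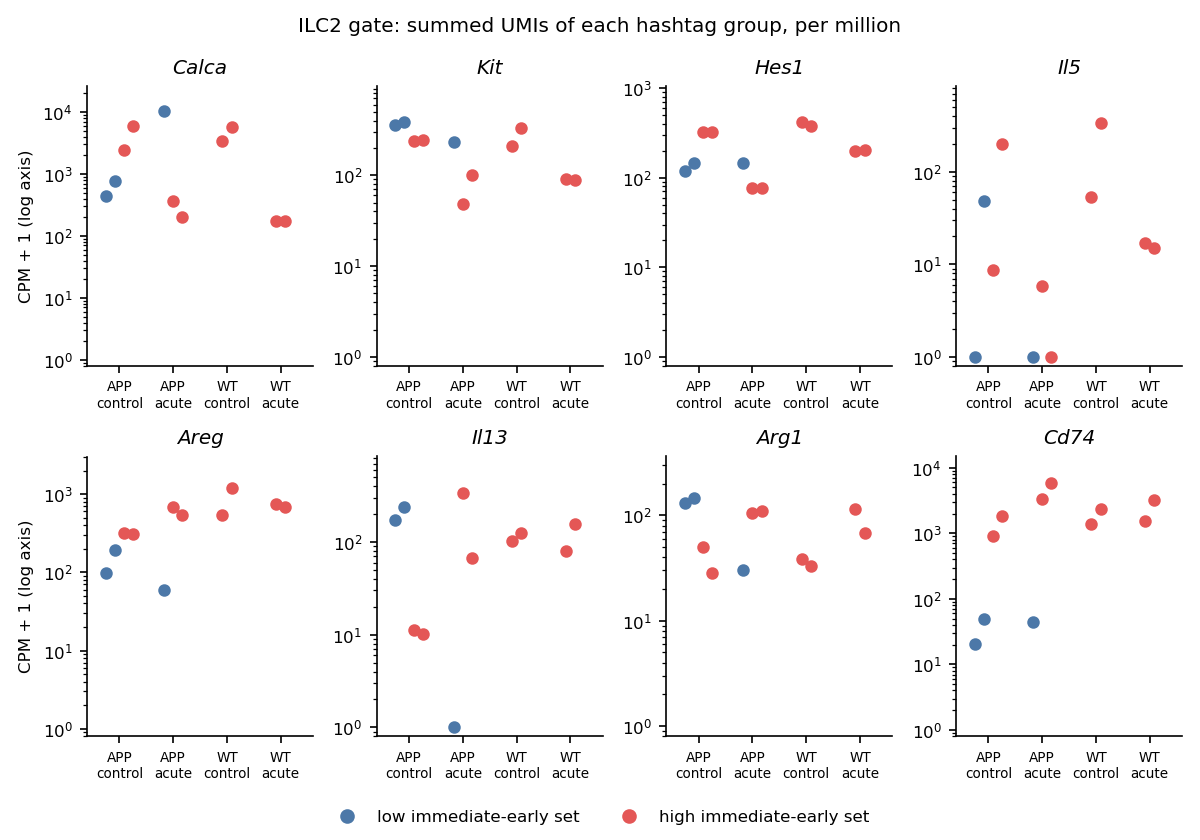
Each panel plots 1 gene of the ILC2 gate in CPM + 1 (log axis), with 1 point per hashtag group of APP control, APP acute, WT control and WT acute (for WT, the high set only), blue for the low and red for the high immediate-early set. Calca lies at 2394 and 6010 CPM in the high control groups, at 358 and 199 CPM in the high acute groups and at 10509 CPM in the low acute group, while Kit at 47.8, 99.3 and 232 CPM lies below the control groups.

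NK cells, which kill by releasing granzymes and perforin, had 27 genes at least 2-fold higher and 8 lower. MHC class II genes were 4 of the higher ones, of 6 compared, where 0.799% of all genes of the gate were higher. None was lower, and the median log2 ratio was 1.29. It was -0.24 in cells of 1 gate only and -0.17 without acute group 5. The medians were 1.12 within the high, -0.46 within the low and 0.60 within the WT high set. Cd74 was at 185, 389, 2104 and 2254 CPM in control and 3078, 5807 and 180 CPM in acute NK cells, with a UMI in 69 and 71 cells, beside ambient levels of 2420 and 3671 CPM whose part in these values was not tested. Gzmb, granzyme B, was at 407 and 424 CPM in the high control groups and 145 and 154 CPM in the high acute groups (log2 ratio -1.40, WT high set -1.78), and at 1092 and 529 against 686 CPM in the low set (-0.38). Cxcr6, a homing receptor of tissue-resident NK cells and ILC1, was at 670, 239, 117 and 155 CPM in control and 228, 120 and 150 CPM in acute (-1.12), so the groups overlapped and control group 4 was highest. Inpp4b, a lipid phosphatase, followed the same course, at 429, 169, 150 and 88.8 CPM against 116, 107 and 112 CPM (-1.01). The ILC1 list had a median of -0.59, with -1.0 within the low and 0.05 within the high set. Xcl1, the chemokine that attracts cross-presenting dendritic cells, was at -2.07 within the low and 0.81 within the high set.

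Few genes of the T cell lists differed by 2-fold, as did few of all genes of the gate (1.69% higher and 0.617% lower). None of the T cell lists of naive, effector, regulatory or checkpoint genes had a member 2-fold higher or lower over the library. With 9, 11, 6 and 9 genes compared, that is near the share over all genes. Of 6 resident T cell genes 1 was lower, Nr4a3, an orphan nuclear receptor gene induced by stimulation, which was at 5.69, 4.16, 27.4 and 320 CPM in control and 33.4, 31.0 and 16.2 CPM in acute groups. In the IL-17 list 1 of 5 compared genes was lower, where 0.617% of all genes of the gate were, and this was Il17a, the signature cytokine of γδ T and Th17 cells. It was at 81.6 and 2636 CPM in control groups 6 and 7 and at 25.1 and 40.4 CPM in acute groups 4 and 5 (log2 ratio -4.77, WT high set -2.08), and at 22.3 CPM in acute group 7. Il17a was detected in 70 control and 21 acute cells. Trbc2, a constant region of the T cell receptor β chain, was at 156, 180, 157 and 153 CPM in the control groups and at 97.1, 89.0 and 107 CPM in the acute groups, a log2 ratio of -0.65 with groups that did not overlap. Of all genes of the gate, 4.25% were apart in this direction. In the WT high set it was at 0.43. Cd8a was at 741, 716, 293 and 126 CPM in control and 246, 170 and 482 CPM in acute, ordered by set rather than by colitis. Interferon-induced genes had a median of -0.75 within the low set and 0.20 within the high set, with Isg15, an interferon-induced ubiquitin-like protein, at 194 and 147 against 60.0 CPM within the low set.

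Several of the 16 genes that were higher in T cells under the stricter count are known from other cells. Ms4a1, which encodes CD20 of B cells, was at 6.91, 13.9, 12.8 and 18.9 CPM in the control groups and at 82.5, 121 and 25.6 CPM in the acute groups (log2 ratio 1.98), and Pf4 went from 9.05 to 76.0 CPM (2.17). Car2, carbonic anhydrase 2, which is high in erythroid precursors, had a log2 ratio of 1.56. The share of T cells that also passed another gate went from 7.64% to 15.2%, summed B cell markers from 1383 to 2260 CPM and macrophage markers from 988 to 1536 CPM in the gate, and their part in these values was not tested.

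Genes induced by glucocorticoids, the steroid hormones of the stress response, had medians above 0 in acute group 7 against the low control groups in the lymphocyte gates, and below 0 within the high set. In the low set 6 of 12 were at least 2-fold higher in T cells (all genes 1.36%), 3 of 9 in B cells (1.58%), 3 of 10 in NK cells (1.36%) and 3 of 11 in ILC2 (10.2%), and 11, 8, 8 and 11 were above 0. Within the high set 1, 1, 3 and 3 were at least 2-fold lower, where 0.942%, 1.02%, 1.15% and 3.65% of all genes were, and 1, 2, 1 and 2 were above 0. In T cells Tsc22d3, the glucocorticoid-induced leucine zipper, was at 293 and 305 CPM in control groups 4 and 5 and 723 CPM in acute group 7 (log2 ratio 1.26), and at 347 and 397 against 341 and 337 CPM in the high set (-0.12). Ddit4, an inhibitor of mTOR signalling, was at 144 and 194 against 370 CPM in the low set (1.20), and in B cells at 111 and 83.5 against 503 CPM (2.30). In NK cells Tsc22d3 was at 187 and 147 against 617 CPM (1.78). The medians of the list were 0.97 in the low and -0.26 in the high set in T cells, 0.90 and -0.81 in NK cells, 0.49 and -0.34 in B cells and 0.52 and -0.72 in ILC2. In the WT high set they were -0.59, -0.88, -0.47 and -0.83. The medians over all genes of these gates lay between -0.13 and 0.05 in both sets.

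**Figure D5:**
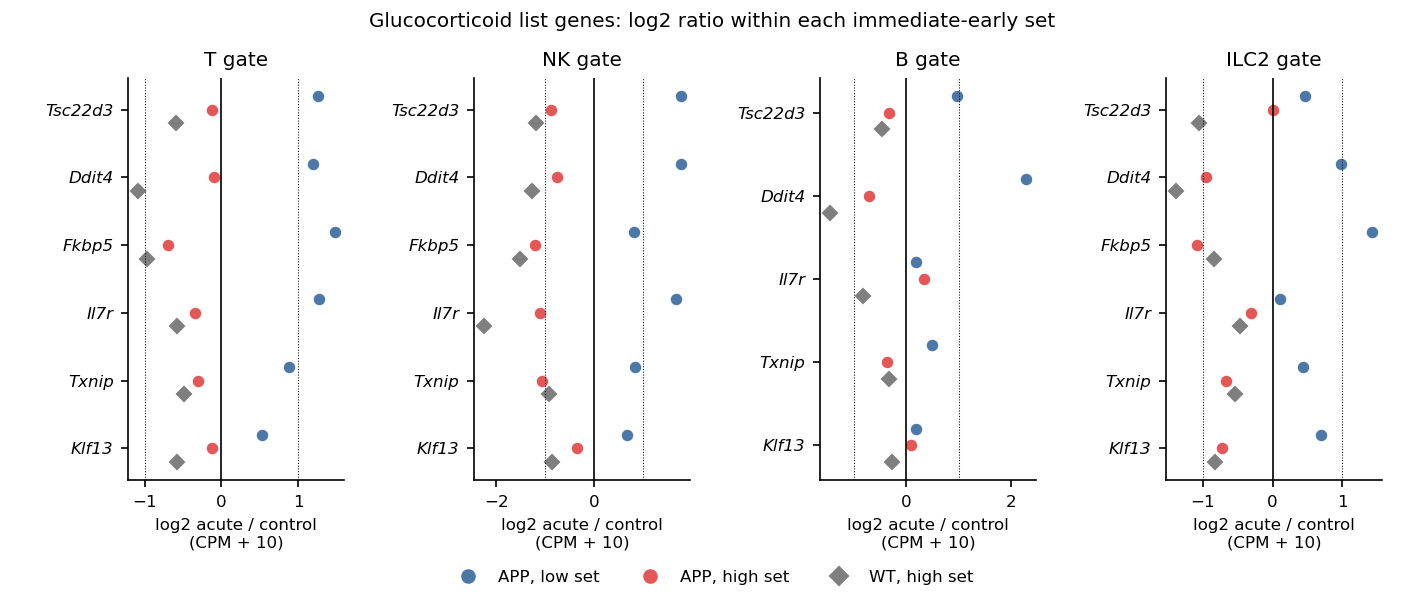
The 4 panels plot the log2 ratio of acute to control CPM (10 CPM added) of 6 genes of the glucocorticoid list (5 in the B gate) in T, NK, B and ILC2 gates within the APP low set (blue), the APP high set (red) and the WT high set (grey), with dotted lines at 2-fold. In T cells Tsc22d3 lies at 1.26 in the low set and at -0.12 in the high set, and Ddit4 in B cells at 2.30 and -0.72.

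B cells, whose share differed most, had 0 genes of the precursor, mature, activation and MHC class II lists at least 2-fold different over the library. With 6, 12, 6 and 9 genes compared, that is near the share over all genes of the gate (1.71% higher and 1.05% lower). Of 9 plasma cell genes 2 were lower, where 1.05% of all genes of the gate were, the IgG heavy chains Ighg1 and Ighg2c. Ighg1 was at 1344 CPM in control group 7, not detected in the other control groups and at most at 107 CPM in the acute groups, with a UMI in 2 control and 2 acute cells. Precursor genes followed the sets, with a median of -0.87 within the low, 0.43 within the high and 0.55 within the WT high set. Vpreb3, a pre-B cell receptor component, was at 1402 and 1667 against 874 CPM in the low set and at 655 and 477 against 952 and 793 CPM in the high set. Ighd, the IgD heavy chain of mature naive B cells, was at 157 and 87.4 against 44.7 and 53.2 CPM within the high set (-1.11, WT -0.91). Ighm and Jchain, which together make pentameric IgM, had log2 ratios of 0.93 and 0.98 with groups that overlapped widely, Jchain running from 33.8 to 12310 CPM over the control groups and from 1920 to 13491 CPM over the acute groups. The gene with the largest ratio, Ttr, the thyroid hormone carrier made by choroid plexus epithelium, was at 0.365 and 785 CPM, but 1 cell held 99.7% of its UMIs in APP acute and the log2 ratio went from 6.26 to 0.34 without the top cell of each library.

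Neutrophil transcripts were higher in APP acute in every lymphocyte gate although neutrophils had been left out, and Ifitm1 was higher in T, B and NK cells. The summed CPM of 11 neutrophil markers went from 141 to 410 in T cells, 171 to 404 in B cells, 141 to 678 in NK cells and 220 to 429 in ILC2. S100a8, a calprotectin subunit of neutrophils, went from 59.5 to 159 CPM in T cells, 68.6 to 162 CPM in B cells and 54.4 to 304 CPM in NK cells, and its ambient level from 7707 to 34954 CPM. Ifitm1, an interferon-induced membrane protein, was at 15.4, 4.16, 12.1 and 52.5 CPM in control T cells and at 220, 99.1 and 82.3 CPM in acute T cells (log2 ratio 2.10), at 10.2 and 117 CPM in B cells (2.65) and at 4.03 and 165 CPM in NK cells (3.64). It was detected in 22 and 23 T cells, 17 and 28 B cells and 5 and 14 NK cells. The top acute cell held 55.9% of its UMIs in NK cells, 33.3% in T cells and 28.0% in B cells. That cell had 160 UMIs in both the T and the B gate, so the 2 gates may share it. Ifitm1 had 0.772 UMIs per S100a8 UMI in acute T cells, 0.721 in B cells and 0.544 in NK cells. This ratio was 0.0105 in the neutrophils left out, 0.0185 in ambient barcodes of APP acute, 1.15 in acute monocytes and 0.613 in acute macrophages. S100a8 is among the genes by which neutrophils were left out. A low ratio in those cells and a higher one in the gates were thus partly fixed by that rule, and the source of Ifitm1 was not tested. The ambient level of Ifitm1 itself went from 258 to 648 CPM, above its levels in the T, B and NK gates of either library, and its part in these values was not tested. In monocytes Ifitm1 went opposite ways in the sets, at 1.19 and 6.00 CPM in the low control groups and 1289 CPM in acute group 7 (6.46), and at 348 and 853 against 493 and 195 CPM in the high set (-1.12), so the groups overlapped. In the WT high set the log2 ratio of Ifitm1 ran the other way, at -2.21 in T cells, -1.65 in B cells and -2.81 in NK cells. Haemoglobin genes were at least 2-fold higher in T cells in 4 of 4 compared (all genes 1.69%), and in B cells in 3 of 5 (1.71%). They were at least 2-fold lower in 2 of 5 in ILC2 (1.54%), 1 of 4 in macrophages (1.9%) and 2 of 2 in monocytes (1.82%), with 0 higher in these gates, and their summed level in monocytes went from 323 to 1.09 CPM. In T cells Hbb-bs, a β-globin, was at 224, 1.28 and 2.46 CPM in control groups 4, 6 and 7, was not detected in control group 5, where a count of 0 allows up to 4.16 CPM, and was at 972, 2.02 and 2088 CPM in the acute groups.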

How the data were processed

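Immune cells of the brain were measured by droplet single-cell RNA sequencing with the 10x Genomics 5′ v2 kit, 1 library per condition. The deposited values are UMI counts per gene and barcode, which the authors made with Cell Ranger 6.1.2 on mm10 and did not normalize. The headers of the matrices name software version 4. Ages are 16 weeks in the labels and 3 months in the paper's methods. Cells, hashtags (top count at least 50 and 3 times the next), neutrophils (at least 2% of UMIs in 8 genes) and gates were assigned from the counts. Doublets were not removed. Gene names and coordinates were from GENCODE vM21, with 38 symbols shared by several of 32285 genes. Python 3.11.15, numpy 2.4.6, scipy 1.17.1, pandas 2.3.3 and matplotlib 3.10.9 were used. The summing and calling steps were tested on simulated data. Shares have Clopper-Pearson, differences Newcombe and sums exact Poisson 95% intervals. Named genes were, per gate, up to 4 with the largest ratio in each direction under the stricter rule and above their ambient level, without gate, immediate-early, neutrophil, haemoglobin, mitochondrial and variable-segment genes and unnamed gene models. From the lists, the members with the largest ratios and those a list is known for were named. T and NK cells had none of the first kind. Some genes are not reported here. Other genes, such as Ifitm1, Trbc2, Ms4a1 and Inpp4b, were named after their values were seen, as were the WT values and the ratio without the top cell added as alternatives. WT groups had at least 200 cells. The members, gates, lists and sets were chosen with earlier results of these data known. Alternatives to the prior, floor, scaling, cell filters and gates were computed, and V(D)J sequences and the other 4 libraries were not used in comparisons.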

Additional observations from a re-analysis of the deposited data

Results flagged for a closer look

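In 5 of 69 sets of 4 control group values that were checked, 1 hashtag group lay far from the others of its library. These were Il17a in T cells of control group 7, at 2636 CPM, Ddit4 in T cells of control group 5, at 194 CPM, and Ighg2c, an IgG heavy chain, in B cells of control group 7, at 1773 CPM. The other two were both in NK cells of control group 4, with Gzmc, granzyme C, at 1346 CPM and Gzma, granzyme A, at 1356 CPM. Gzmc was high there and Gzma low. Ighg2c was detected in 12 control and 5 acute cells.

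Within the high set, every acute group of APP lay on one side of the control groups and every acute group of WT on the other for 5 of 119 values checked (4.2%), and this difference between genotypes was not tested. Over all genes compared the same pattern held for 11.5% in T cells, 6.93% in B cells and 7.49% in NK cells. The APP log2 ratios were -0.69 for Trbc2 and 1.98 for Ifitm1 in T cells, -5.96 for Ighg2c and 2.64 for Ifitm1 in B cells, and 4.18 for Ifitm1 in NK cells. The WT log2 ratios were 0.43 for Trbc2 and -2.21 for Ifitm1 in T cells, -1.65 for Ifitm1 in B cells and -2.81 in NK cells. Ighg2c was not detected in the WT high control groups and was at 6.33 and 7.01 CPM in the WT high acute groups.

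The neutrophils that were left out made up 18.6% of cells in APP acute, beside 6.22% in APP control, 3.50% in WT control and 4.40% in WT acute. Most of those of APP acute were in group 7. Leaving them out took that group from 3218 to 2236 cells, and acute groups 4 and 5 from 1296 to 1224 and from 1768 to 1656. Control groups 4 to 7 went from 1685, 1717, 1560 and 1738 cells to 1638, 1593, 1464 and 1588.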

How the results depend on the processing

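No paired analysis was possible because each condition was 1 library and the hashtag numbers were not tied to animals. Counts of genes at 2-fold or more, 71 in T, 84 in B, 35 in NK, 91 in ILC2, 110 in macrophages and 81 in monocytes, moved with the floor and other choices. With at least 20 UMIs and no CPM floor they were 119 in T, 127 in B, 100 in NK and 193 in both ILC2 and macrophages. With 50 CPM added they were 44 in ILC2, 64 in macrophages and 45 in monocytes, and with 1 CPM added 139 in ILC2. Within the low set they were 91 in NK, 56 in ILC2 and 187 in monocytes, and within the high set 103, 159 and 189, with the floor applied to each set's own sums. With no neutrophils left out they were 85 in NK and 142 in ILC2, with 2 UMIs of each gate gene 56 and 48, and with cells of 1 gate only 23 in NK. Leaving out 1 hashtag group gave 59 to 98 in T, 79 to 99 in B, 20 to 87 in NK, 87 to 141 in ILC2, 104 to 143 in macrophages and 73 to 192 in monocytes. NK counts were 62 without control group 7, 20 without acute group 5 and 87 without acute group 7, and the highest counts of ILC2 and monocytes came without acute group 7. The share of B cells reversed to -0.351 points in the low set and moved to 20.8 in the high set, that of macrophages reversed to -0.443 in the low set, and that of monocytes moved to 4.36 and -4.54. Without 1 group the differences ran from -11.7 to -0.500 points in T, 7.73 to 17.8 in B, -1.21 to 1.13 in NK, -2.82 to 0.462 in ILC2, 0.758 (without acute group 5) to 7.77 (without acute group 7) in macrophages and -3.97 to 0.882 in monocytes. The NK class II median reversed to -0.24 in cells of 1 gate only and ran from -0.17 (without acute group 5) to 2.05 without 1 group. In monocytes, medians reversed with groups weighted equally for immediate-early (0.0681) and NF-κB genes (0.0673), and in the high set for NF-κB (0.25) and neutrophil genes (-1.44). Without 1 group they ran from -1.85 to 0.29, -1.78 to 0.25 and -0.77 to 1.75, each reversing without acute group 7. The causes were not tested. Of the named genes' ratios under alternatives other than leaving out a group, 219 stayed within the spread of the groups, 33 moved and 0 reversed. These genes had been chosen for the same direction in both sets and for groups that did not overlap. The lack of reversals was therefore largely fixed by that choice and does not show how stable the ratios are. With at most 4 groups a library, and 36 and 15 macrophages in the low set, differences within that set rest on little depth.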
